A study of Rattus norvegicus with 4 samples.

Results

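The genes of heme synthesis and of the erythroid cell described here are Alas1, Alas2, Alad, Urod, Cpox, Ppox, Fech, Slc4a1 and Hbb. They were chosen by name, as every gene probe whose symbol was 1 of these 9, and they were measured by 10 of the 30367 gene probes on the array, which carry 26514 gene names in all. Male Sprague-Dawley rats were fed an iron-deficient diet (FeD, 5 ppm iron), an iron-adequate diet (FeA, 35 ppm) or an iron-overloaded diet (FeO, 20275 ppm) for 3 weeks from weaning, and whole pancreas was taken after an overnight fast. RNA of 6 rats was combined into 1 pool per diet, and FeD and FeO were compared with FeA on 2 dye-swapped 2-colour arrays each, 4 in all. The rats were bled from the aorta and no perfusion of the tissue is described, so the RNA is that of whole pancreas with whatever blood it held. In such bulk RNA, fewer cells of a type and less RNA per cell cannot be told apart. The data address how pancreatic transcripts differ between rats short of iron, loaded with iron and fed enough of it.

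Heme is made in a chain of enzymes that begins and ends in the mitochondrion, and the last enzyme, Fech, inserts the iron. The first enzyme exists as a pair of genes: Alas1 serves all cells, and Alas2 is made in developing red cells, where hemoglobin takes up most of the heme. Hbb encodes beta globin and Slc4a1 encodes band 3, the anion exchanger of the red cell membrane, and the transcripts of Alas2, Hbb and Slc4a1 are still carried by young red cells in blood. Low iron is known to hold back the translation of Alas2 mRNA through a hairpin near its cap, a control that acts on protein and not on the mRNA level measured here.

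Each value below is a log2 ratio of diet over FeA, so that 0 is no difference and 1 is 2-fold. On array 1 of each comparison the diet's RNA carried Cy5, and on array 2 it carried Cy3. The 2 arrays of a comparison share the same 2 pools and count as 1 replicate, so no test of the diets was possible and the distance between the arrays is the only error given. A gene was called by size where its mean log2 ratio was at least 1 in size with the same sign on both arrays. All 10 probes of the 9 genes were well above background in both pools on all 4 arrays, and none was saturated. Over the 15733 genes that passed the filter in FeD and the 16433 in FeO, the median log2 ratio was 0.01 in each, and the median distance between the arrays was 0.22 in each. Over all gene spots, 61.9 to 71.5% were well above background in a channel, and the arrays came from 1 slide and 1 scan.

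In FeD pancreas, the erythroid genes Alas2 and Slc4a1 were higher than in FeA on both arrays, and no other gene of the 9 was called. Calls in this direction were rare among all genes, with 0.114% called (18 of 15733), and Alas2 ranked 8th and Slc4a1 12th from the top. The normalised intensity of Alas2, the erythroid form of the first enzyme, was 1724 in FeD and 921 in FeA on array 1, and 2115 in FeD and 714 in FeA on array 2. Both FeD values of Alas2 lay above both FeA values. The log2 ratios of Alas2 were 0.91 and 1.57, with a mean of 1.24 (2.35-fold).

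For Slc4a1, the band 3 anion exchanger, intensity was 210 in FeD against 120 in FeA on array 1, and 310 against 119 on array 2. Both FeD values again lay above both FeA values. The log2 ratios of Slc4a1 were 0.81 and 1.38, with a mean of 1.09 (2.13-fold). On array 1 alone, Alas2 and Slc4a1 stayed below a log2 ratio of 1. The Slc4a1 probe was dim, and its mean depended on the background treatment, being 0.96 with no background correction, which ends the call, and 1.78 with the scanner software's processed signals.

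**Figure D1:**
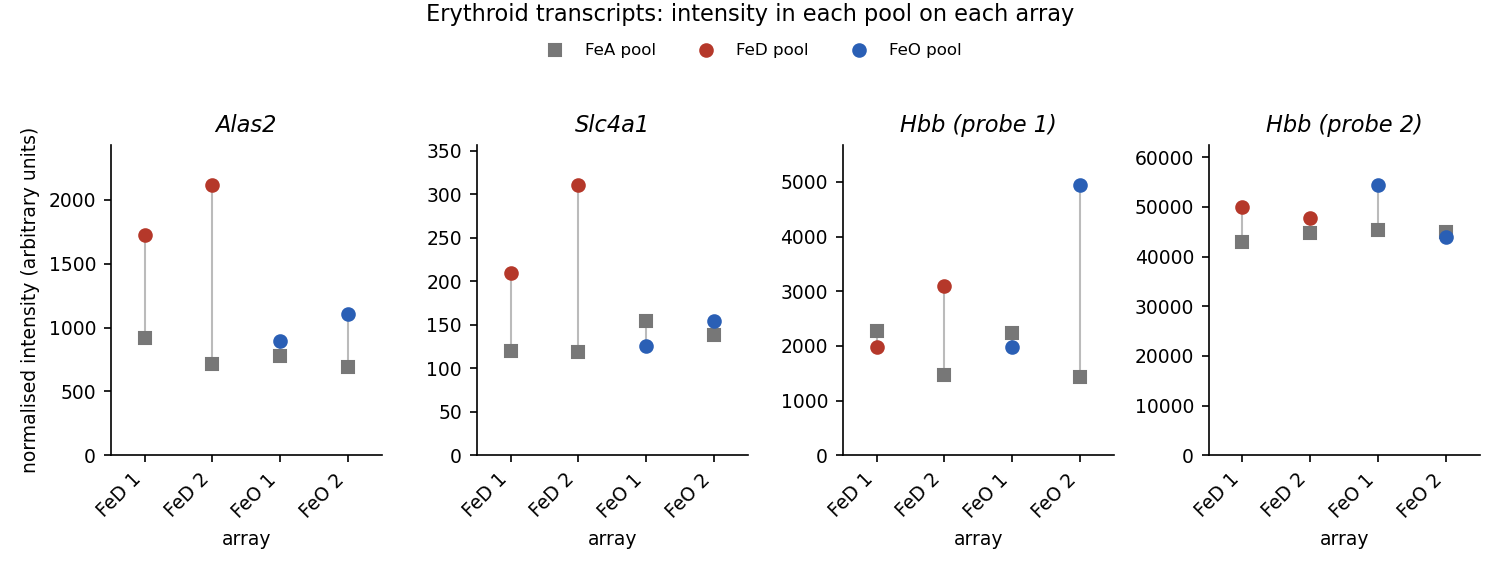
Normalised intensity (y axis, arbitrary units from 0) of the Alas2, Slc4a1 and both Hbb probes on each of the 4 arrays (x axis), with the FeA pool as grey squares, FeD as red circles and FeO as blue circles. Grey lines join the pools of 1 array. In FeD, Alas2 and Slc4a1 lay above FeA on both arrays, while the first Hbb probe lay above FeA on array 2 of each comparison and below it on array 1.

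Hbb, the third erythroid gene, was read by 2 probes of 1 transcript that gave different pictures. Its first probe had intensities of 1978 in FeD and 2278 in FeA on array 1 and of 3103 and 1463 on array 2, so the direction turned with the dyes. Its second probe was bright and nearly flat, at 50027 in FeD and 42892 in FeA on array 1 and 47867 and 44828 on array 2. The gene mean of the log2 ratio was 0.01 on array 1 and 0.59 on array 2 (mean 0.30). Globin genes are near copies of each other, so an Hbb probe may read related globins as well.

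In FeD, Alas2 was called higher and its paralog Alas1 was not. The DNA around an annotated transcript start of each, and of Hbb, is shown as description, and its part in the ratios was not tested. The sequences are from RefSeq (GRCr8), run from 250 bases before to 30 bases after the start of a transcript, and were matched by symbol for 7 of the 9 genes. Capitals mark matches, on either strand, to the GATA motif (A or T, then GATA, then A or G), the CACCC-like motif (CCNCNCCC) and the NRF1-like motif (GCGCANGC). The Alas2 window (chrX:22895200-22895479, plus strand) surrounds a transcript start 4800 bases inside the gene model (chrX:22890650-22914046), so it is not the 5′ end of the gene. A difference in motifs between this window and the others is therefore not a difference between the 5′ ends of the genes. The Alas1 window (chr8:115768613-115768892, minus strand) and the Hbb window (chr1:167663692-167663971, minus strand) stand at the 5′ ends of their gene models.
Alas2: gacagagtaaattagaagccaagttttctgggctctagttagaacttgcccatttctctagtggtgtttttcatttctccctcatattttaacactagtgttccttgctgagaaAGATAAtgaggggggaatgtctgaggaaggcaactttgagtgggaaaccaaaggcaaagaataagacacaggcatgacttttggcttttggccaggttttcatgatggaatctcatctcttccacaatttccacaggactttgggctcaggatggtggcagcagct
Alas1: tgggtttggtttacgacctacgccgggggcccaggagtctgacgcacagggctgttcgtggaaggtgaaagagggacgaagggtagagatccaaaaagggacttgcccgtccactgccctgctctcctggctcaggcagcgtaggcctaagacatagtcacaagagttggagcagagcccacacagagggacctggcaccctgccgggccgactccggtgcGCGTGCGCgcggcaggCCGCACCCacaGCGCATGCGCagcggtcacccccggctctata
Hbb: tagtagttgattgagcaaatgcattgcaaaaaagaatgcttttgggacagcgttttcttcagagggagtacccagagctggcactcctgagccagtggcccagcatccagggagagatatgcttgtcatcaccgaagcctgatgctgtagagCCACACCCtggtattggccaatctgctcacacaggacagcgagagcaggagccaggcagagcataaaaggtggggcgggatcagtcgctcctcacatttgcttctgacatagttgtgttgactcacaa
The Alas2 window held 1 GATA match, AGATAA, which begins 136 bases before the start, and neither of the other motifs. A GATA match stood in 29.0% of all 33469 windows of this length. The Alas1 window held 1 CACCC-like match and 3 NRF1-like matches, of which 2 overlap across the start, and the Hbb window held the CACCC-like match CCACACCC 98 bases before its start. A CACCC-like match stood in 45.1% of all windows and an NRF1-like match in 8.64%. Of the 5 ubiquitous genes with a window, 4 held a CACCC-like match (Alas1, Alad, Fech and Urod), Fech held a GATA match 135 bases before its start, and Alas1 and Alad held NRF1-like matches, so no motif searched was held by the erythroid windows alone. These are matches of letters and not sites of binding.

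The genes that every cell uses had means between -0.29 and 0.22 in FeD, with none called. Alas1, the ubiquitous first enzyme, had log2 ratios of 0.07 and -0.15 (mean -0.04), with intensities of 1640 in FeD and 1558 in FeA on array 1 and 1488 and 1651 on array 2. The direction of Alas1 turned with the dyes. Alad, which joins a pair of aminolevulinic acid molecules, had log2 ratios of -0.16 and -0.13 (mean -0.15). Urod, which trims the side chains of uroporphyrinogen, had log2 ratios of -0.24 and -0.28 (mean -0.26), and Ppox, which oxidises protoporphyrinogen, of -0.34 and -0.23 (mean -0.29). These 3 enzymes were the members lower on both arrays, as were 21.7% of all genes. Cpox, the enzyme before Ppox, had log2 ratios of 0.38 and -0.12, which disagreed in direction. Fech had log2 ratios of 0.01 and 0.44 (mean 0.22), and with Alas2, Slc4a1 and Hbb it made 4 members higher on both arrays, as were 25.2% of all genes. For Hbb this held for the gene mean and the second probe, but not for the first probe (-0.204 and 1.085). None of the 9 was called lower, and 0.242% of all genes were (38 of 15733).

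**Figure D2:**
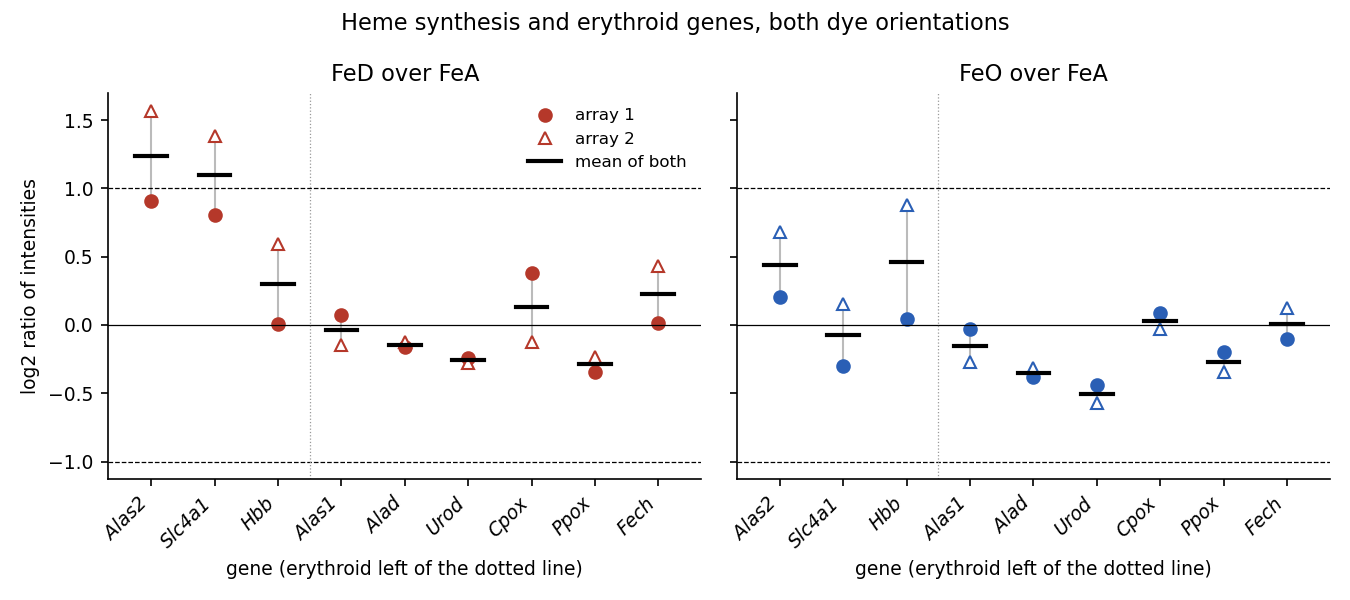
Log2 ratio of diet over FeA (y axis) for the 9 genes (x axis) on array 1 (filled circles) and array 2 (open triangles), with black bars for the mean of both, in FeD (left) and FeO (right). Dashed lines mark log2 ratios of 1 and -1. Alas2 and Slc4a1 stand above the upper line only in FeD, and Alad, Urod and Ppox lie below 0 on all 4 arrays.

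The median of the 3 erythroid genes was 1.09 in FeD and that of the 6 ubiquitous genes -0.09, a difference of 1.19. Taken from each array alone, that difference was between 0.88 and 1.52. In FeO the medians were 0.44 and -0.21, and the difference was 0.65. From single arrays the FeO difference was between 0.19 and 0.97. The erythroid median lay above the ubiquitous median on every array, although Slc4a1 took no part in this in FeO, where its mean was -0.07. In FeO the difference leaned on the Hbb gene mean, whose probes disagreed. On array 1 the erythroid median was Hbb itself (0.04), averaged from probes at -0.17 and 0.26. The second Hbb probe alone had a FeO mean of 0.11, which would then be the erythroid median in place of 0.44.

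In FeO pancreas none of the 9 genes was called in either direction. Among all genes, 0.615% were called higher (101 of 16433) and 0.469% lower (77 of 16433). Alas2 had an intensity of 891 in FeO against 774 in FeA on array 1 and of 1103 against 689 on array 2, with log2 ratios of 0.20 and 0.68 (mean 0.44). Both FeO values of Alas2 lay above that array's FeA value, with a mean ratio of 1.36-fold. Slc4a1 had log2 ratios of -0.30 and 0.15 (mean -0.07), so its direction turned with the dyes. The Hbb mean of 0.46 came from array 2 (0.88) and not from array 1 (0.04). On that array the first Hbb probe read 4938 in FeO against 1431 in FeA, while the second read 43874 against 44949.

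The pathway enzymes were lower in FeO in several cases. Urod had the lowest mean of the 9, with intensities of 5268 in FeO against 7158 in FeA on array 1 and 4322 against 6422 on array 2. Its log2 ratios were -0.44 and -0.57 (mean -0.51), a level 1.42-fold lower than in FeA. Of all genes, 1.98% had a mean of -0.5 or lower on the same terms. Alad had log2 ratios of -0.38 and -0.32 (mean -0.35), and Ppox of -0.20 and -0.35 (mean -0.27). With Alas1, at -0.03 and -0.27 (mean -0.15), they made 4 members lower on both arrays, as were 24.1% of all genes. Cpox had a mean of 0.03 and Fech of 0.01, each with arrays on either side of 0. By gene means, Alas2 and Hbb were the 2 members higher on both arrays, as were 28.1% of all genes. Neither Hbb probe was higher on both arrays by itself. The first had log2 ratios of -0.17 and 1.79, and the second of 0.26 and -0.03.

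The FeD and FeO comparisons share the FeA pool, so their ratios are not independent, and a difference between the diets was therefore also taken as the FeO ratio minus the FeD ratio on arrays of like dye orientation. This comparison was added after the values had been seen. Slc4a1 was lower in FeO than in FeD by log2 differences of -1.10 and -1.23 (mean -1.17), which made FeD 2.24-fold higher than FeO. It was the only member lower by at least 1 on these terms, as were 0.544% of 15259 genes. Alas2 followed with differences of -0.70 and -0.89 (mean -0.79), a level 1.73-fold higher in FeD. The pairs of arrays lay closer together in these differences than in either comparison with FeA for both genes.

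Among the other genes, Hbb had differences of 0.04 and 0.29 and so did not share the direction of Alas2 and Slc4a1. Alas1 (mean -0.11), Alad (-0.20), Urod (-0.25) and Fech (-0.21) were lower in FeO than in FeD on both pairs of arrays. With Alas2 and Slc4a1 they made 6 of 9 members below 0 on both pairs, against 32.9% of all genes. Cpox and Ppox had pairs on either side of 0. The direction of the mean turned under 1 of 7 processing settings for Hbb, Alas1 and Ppox each and under 2 of 7 for Cpox. Median centring brought Alad to -0.01 and Urod to -0.05. Over the 7 settings Slc4a1 stayed between -1.88 and -1.02 and Alas2 between -0.88 and -0.68.

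**Figure D3:**
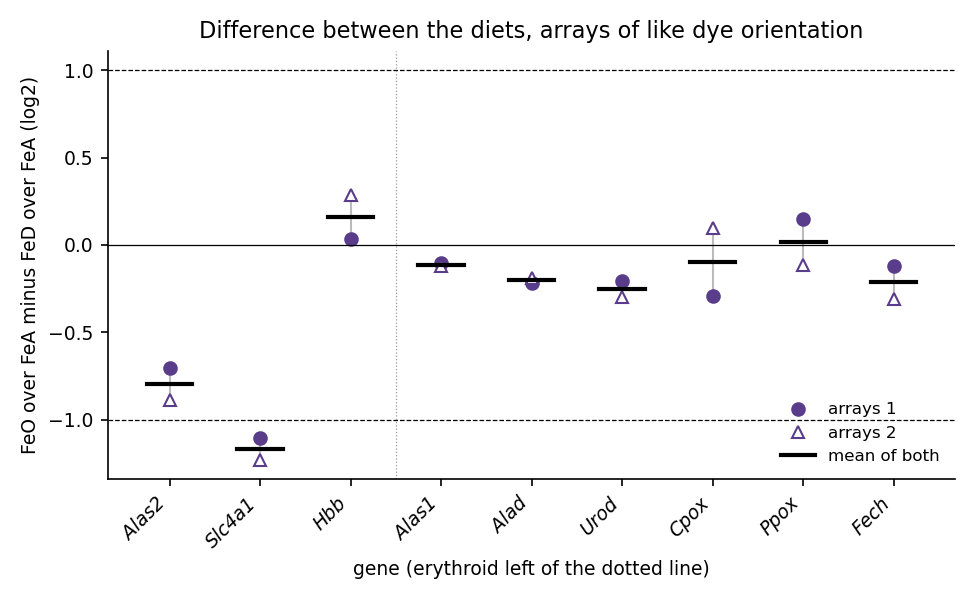
Difference of log2 ratios, FeO over FeA minus FeD over FeA (y axis), for the 9 genes (x axis), taken between both arrays 1 (filled circles) and between both arrays 2 (open triangles), with black bars for the mean. Dashed lines mark 1 and -1. Slc4a1 (-1.17) and Alas2 (-0.79) lie lowest, and the other 7 genes lie between -0.31 and 0.29 on each pair.

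The arrays of a comparison differed in 1 direction for Alas2, Slc4a1 and the first Hbb probe, and in the other for the second Hbb probe. Alas2 was higher on array 2 than on array 1 by 0.66 in FeD and by 0.48 in FeO, and Slc4a1 by 0.58 and 0.45. The first Hbb probe was higher on array 2 by 1.29 and 1.96, whereas its second probe was lower on array 2 by log2 differences of -0.13 and -0.30. Fech was higher on array 2 by 0.42 and 0.23. Over all genes the median difference between the arrays was 0.00 in FeD and 0.02 in FeO. The mean over both dye orientations is the value in which an even effect of the dye cancels, and the part of the dye in these differences was not tested.

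Further genes around heme were described from lists. Uros, the enzyme of heme synthesis that closes the ring, had means of -0.07 in FeD and -0.18 in FeO and was not called. Among mitochondrial carriers and partners of the pathway, 11 of 12 passed the filter in FeD, none was called, and means ran from -0.21 for Slc25a38, a carrier linked to glycine import, to 0.12 for Tmem14c, a porphyrinogen transporter. In FeO, 10 of them passed, and means ran from -0.28 for Suclg1 to 0.17 for the iron importer Slc25a28.

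No gene of heme breakdown, transport and sensing was called. Of the 17 listed, 12 passed in FeD with a median of -0.02 and 13 in FeO with a median of 0.05, beside 0.01 for all genes in each. Hmox1, the inducible heme oxygenase, had log2 ratios of 0.05 and 0.15 (mean 0.10), the highest of the list in FeD. Abcg2, an exporter of porphyrins, was the lowest in both diets with means of -0.51 and -0.38, and it was well above background only in FeA, where it was at least 1.28-fold above FeD and 1.24-fold above FeO. Nr1d1, a nuclear receptor that binds heme, was the highest in FeO, with log2 ratios of 0.24 and 0.91 (mean 0.58). Of the regulators of Alas1 that were listed, 5 passed in each diet and none was called. Cebpb, a transcription factor, had means of 0.34 in FeD and 0.65 in FeO, and Hnf4a was the lowest with -0.03 and -0.02.

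None of the globins was called in either diet, and most of those measured were higher in FeD than in FeA. The list named 17 globins or globin partners, 10 were found on the array, and 7 passed the filter in FeD, with a median of 0.37 against 0.01 for all genes. Of these 7, 6 were higher on both arrays, beside 25.2% of all genes, and 1 was lower. The highest was the alpha globin that the array names Hba-a2, with log2 ratios of 0.48 and 0.74 (mean 0.61), followed by the beta globin listed as LOC689064 with 0.57 and 0.59 (mean 0.58). Ahsp, a chaperone of free alpha globin that the array names Eraf, had log2 ratios of 0.69 and 0.45 (mean 0.57). These 3 had means of at least 0.5, as did 1.72% of all genes. The exception was LOC287167, an alpha globin named Hba-a3 in RefSeq, whose dim probe had log2 ratios of -1.13 and -0.48 (mean -0.81).

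In FeO, 8 globins passed with a median of 0.32, which was 0.05 on array 1 alone and 0.34 on array 2 alone and fell to 0.15 with no filter. Of these 8, 5 were higher on both arrays, beside 28.1% of all genes. LOC287167 was the highest there, with log2 ratios of 0.76 and 0.79 (mean 0.77), opposite to FeD. Ahsp was the lowest, with -0.09 and -0.21 (mean -0.15). The probe of the embryonic globin Hbe2 gave near-equal means of 0.37 in FeD and 0.39 in FeO. It was bright, at 16995 to 17769 in FeA, while Hbe1 did not pass the filter on background. Whether the Hbe2 probe read other globins was not tested.

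Of genes of the red cell membrane and its metabolism, 18 of 23 were on the array and 10 passed in FeD. Their median was 0.20, and Slc4a1 was the only one called, beside 0.114% of all genes called higher. On both arrays 7 were higher and none was lower, beside 25.2% and 21.7% of all genes. Rhd, a subunit of the Rh complex, had log2 ratios of 0.73 and 0.43 (mean 0.58), and Xk, a membrane transporter, was the lowest (mean -0.05). Several genes that define the red cell skeleton and its Rh complex, namely Ank1, Sptb, Epb42 (Epb4.2 on the array) and Rhag, did not pass the filter on background. In FeO the list ran from Slc4a1 (-0.07) to the membrane glycoprotein Gypc (0.29) with a median of 0.08, and none was called.

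Of the transcription factors and receptors that set the erythroid program, Gata1, Gfi1b and Hemgn did not pass the filter on background, and 7 of the 11 regulators on the array passed, among them Klf1, Tal1, Nfe2, Lmo2 and Bcl11a. Their median was 0.12 in FeD and -0.04 in FeO, and none was called. Klf1, the erythroid factor that binds CACCC boxes, showed FeD ratios of 0.13 and 0.29 (log2) beside FeO ratios of -0.08 and 0.19. Tfrc, the transferrin receptor, whose mRNA is known to be stabilised when iron is low, had the highest mean of the list in FeD, with 0.31 and 0.45 (mean 0.38), and the lowest in FeO, with -0.52 and -0.63 (mean -0.58). Tal1 was the lowest in FeD (mean -0.08) and Lmo2 the highest in FeO (mean 0.19).

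**Figure D4:**
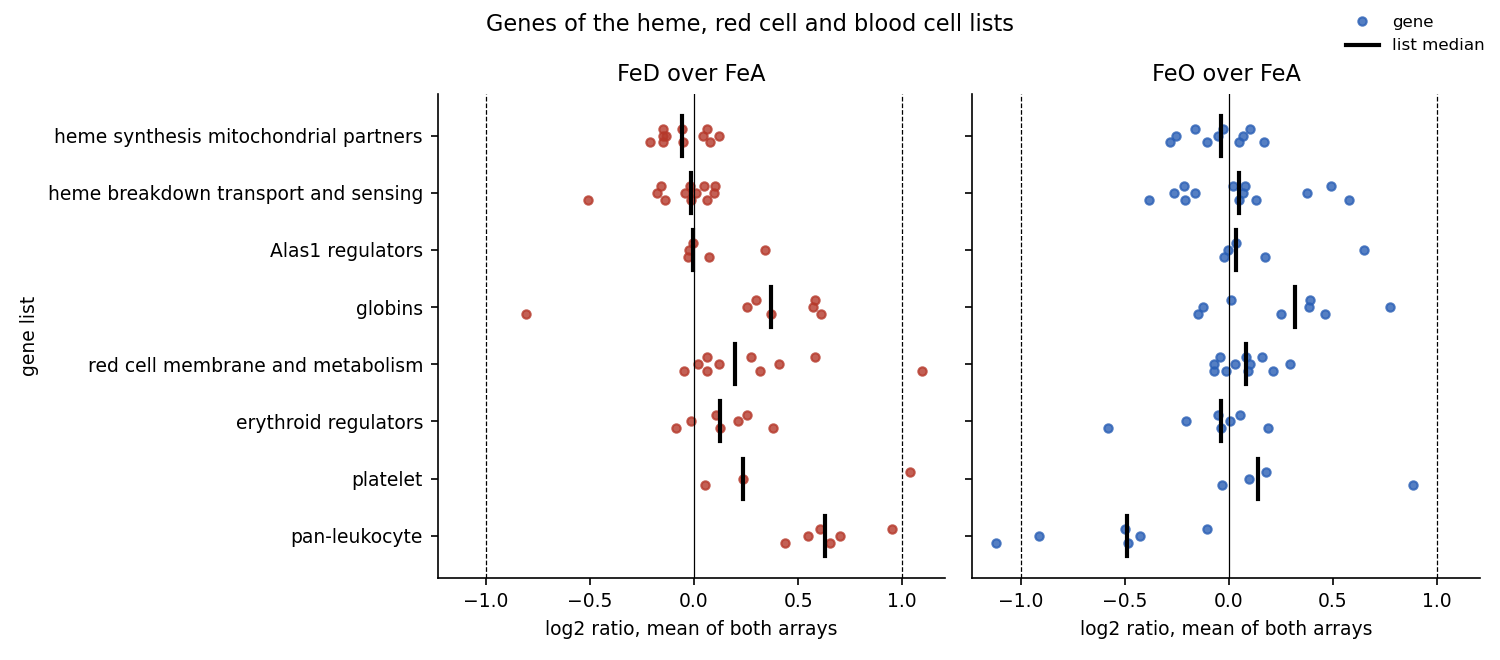
Mean log2 ratio of diet over FeA (x axis) of each gene (points) that passed the filter in 8 lists (y axis), with black bars for list medians, in FeD (left) and FeO (right). Dashed lines mark 1 and -1. In FeD, Slc4a1 and the platelet gene Pf4 lie beyond 1, and the pan-leukocyte list lies above 0 in FeD (median 0.63) and below 0 in FeO (median -0.49).

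Markers of other blood cells moved with the erythroid genes in part. All 6 leukocyte markers measured were higher on both arrays in FeD, beside 25.2% of all genes, with a median of 0.63. In FeO 5 of 6 were lower on both arrays, beside 24.1% of all genes, with a median of -0.49. The summed intensity of the leukocyte probes was 11231 to 12733 in FeD against 6751 to 7773 in FeA, and 4230 to 4819 in FeO against 7153 to 7620 in FeA. Coro1a, an actin regulator of blood cells, ran from 0.95 in FeD to -1.12 in FeO, where it was called lower. Cd3e of T cells was the lowest in FeD (mean 0.44) and Cd52 the highest in FeO (-0.11).

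The platelet chemokine Pf4 was called higher in FeD, with log2 ratios of 1.04 and 1.04, and had a mean of 0.88 in FeO. Of 7 platelet markers, 5 were on the array. The platelet chemokine Ppbp did not pass the filter on background in either comparison, nor did Treml1 in FeD. The median of those that passed was 0.23 in FeD and 0.14 in FeO, and Gp9 was the lowest, with means of 0.05 in FeD and -0.03 in FeO. Of 7 neutrophil markers, S100a8, Elane and Csf3r did not pass the filter on background in either comparison, and the summed intensity was 598 to 650 in FeD against 607 to 620 in FeA. The neutrophil means ran from -0.40 for Ngp to 0.14 for Camp in FeD, and in FeO Ngp was the lowest at -0.55, while S100a9, which was not well above background in FeA, was at least 1.32-fold higher. Endothelial markers had medians of 0.31 in FeD and 0.39 in FeO, with Pecam1 lowest (0.14 and 0.19), Vwf highest in FeD (0.41) and Kdr highest in FeO (0.70). Macrophage markers of the red-pulp kind had medians of 0.21 and 0.24, from Slc40a1 (-0.34 and -0.30) to Vcam1 in FeD (0.52) and Cd163 in FeO (0.95). The part of other blood cells in the ratios of Alas2 and Slc4a1 was not tested.

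The tissue itself was checked by its own markers. All 9 acinar markers passed the filter in FeD, where their median was -0.02, and 6 were measured on both arrays in FeO, with a median of -0.27. Of the 9 acinar probes, 8 were saturated in at least 1 channel, so the ratios behind these medians are not exact. The sign of the acinar median turned under 1 of 9 alternatives in each diet, to 0.25 on array 1 alone in FeD and to 0.10 with median centring in FeO. The probe of Cel, a lipase, was not saturated and was the lowest, with means of -0.31 in FeD and -0.64 in FeO, and Ctrb1, the highest by measured value in both, was saturated in 4 channels and is given no ratio. Intestinal markers were lower than FeA in both diets, with medians of -1.61 in FeD and -1.82 in FeO. In each diet 5 of 7 were called lower: Fabp1, Fabp2, Cdh17, Krt20 and Lgals4. Among all genes, 0.242% were called lower in FeD and 0.469% in FeO. The summed intensity of the intestinal probes was 7166 to 7562 in the FeA pool, 1972 to 2124 in FeD and 1455 to 1570 in FeO, and Vil1 was highest in both with means of -0.19 and -0.13. Fabp1 was the lowest of the list in both diets, with a mean of -4.21 in FeD and, in FeO, an intensity not above background that bounds the fold at 21.8 or more.

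Islet markers had medians of -0.33 in FeD and -0.79 in FeO. In FeO the glucagon gene Gcg was called higher (mean 1.14), while the pancreatic polypeptide gene Ppy (-1.08) and the amylin gene Iapp (-1.02) were called lower. In FeD the range was from Iapp (-0.55) to Ppy (0.22). Alad, Urod and Ppox were lower than FeA in the same comparisons in which the intestinal and islet lists were lower, and the part of tissue composition in those ratios was not tested.

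The genes whose 4 array ratios were nearest to those of Alas2, by Euclidean distance among 15259 genes, were Irf7 (distance 0.10), RT1-A2 (0.48), Slc16a6 (0.57) and LOC688090 (0.60), beside a probe target with no gene name. Irf7, an interferon regulatory factor, showed FeD ratios of 0.99 and 1.52 (log2) beside FeO ratios of 0.24 and 0.70. RT1-A2 is a class I histocompatibility gene. The genes nearest to Hbb were Ppp2r5a (0.08), Csf2ra (0.10), LOC310721 (0.11), Aqp12b (0.13) and Ptk7 (0.15). Their higher value on array 2 in both comparisons follows from their choice by these same ratios. The Hbb ratios used were means over its 2 probes, which gave different pictures. For Alas1 no neighbours were given, because the root mean square of its 4 ratios was 0.16, below the 0.5 required. Nearness over 4 arrays of 3 pools describes these arrays.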

How the data were processed

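The intensity values were deposited as the authors obtained them from the scanner software (Agilent Feature Extraction, version 10.1.1.1 in the submitters' processing notes) for 4 Rat GE 4x44K v3 arrays (1 slide, 1 scan), with uncorrected median spot and local background signals and background-corrected, dye-normalized processed signals. The authors' deposited comparison tables hold log2 fold changes, p-values and q-values, of which only the probe names and symbols were read. Here, limma 3.58.1 in R 4.3.3 applied normexp background correction (offset 50) and loess within each array, with control spots given no weight and outlier spots left out (722 to 938 gene spots an array). Spots of a probe were averaged, the dye-swapped array was turned, and channel intensities were scaled between arrays (Aquantile). A probe was kept where it was well above background on both arrays in at least 1 of the pools of a comparison, and a gene was the mean over its kept probes. Symbols came from those tables for 22949 probes, and 7418 probes carried none and kept their target identifier. RefSeq (GRCr8) gave current names.

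With 1 RNA pool per diet, the 2 arrays of a comparison are 1 replicate and no test of the diets was made. The number of arrays limits the precision, and the offset lowers the ratios of dim probes. The genes and lists were chosen with earlier results of these data known. Genes named from the lists were those called by size and the highest and lowest of each list in each diet, with others named for their role after their values were seen. The 5 genes nearest to Alas2, Hbb and Alas1 were named where the root mean square ratio was at least 0.5. Alternatives were another offset, no background correction, processed signals, median centring, other filters, the brightest probe, single arrays, other sizes, the methods' t-test and limma's moderated test, the last 2 comparing RNA pools only. The procedure was tested on simulated data. Gene summaries and figures were made in Python 3.11.15 (matplotlib 3.10.9, pandas 2.3.3).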

Additional observations from a re-analysis of the deposited data

Results flagged for a closer look

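Of 51 genes named from the lists or as members, 5 moved in opposite directions on all arrays of FeD and of FeO relative to the shared FeA pool, and none of the 9 heme and erythroid genes did. The differences, FeO minus FeD on the log2 scale, were not tested. They were -0.96 for the transferrin receptor Tfrc, -0.72 for Ahsp (Eraf on the array) and 1.58 for the alpha globin LOC287167. Among leukocyte markers they were -2.07 for Coro1a and -0.94 for Cd3e.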

How the results depend on the processing

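Among the 9 genes, no alternative reversed one called by size, and single genes outside the 9 were not followed over the alternatives. Alas2 in FeD ran from 0.91 to 1.57 and reached 1 under 8 of 9 alternatives, and Slc4a1 from 0.81 to 1.78 and reached 1 under 7 of 9. The directions of Cpox in FeD (-0.12 to 0.38), Alas1 in FeD (-0.15 to 0.07), Fech in FeO (-0.10 to 0.12), Cpox in FeO (-0.03 to 0.16) and Slc4a1 in FeO (-0.30 to 0.15) turned under at least 1 alternative. The difference between erythroid and ubiquitous medians stayed above 0 under all 9 alternatives in each comparison. The 56 genes called in FeD and 178 in FeO became 144 and 375 with normexp offset 0 and 280 and 634 with the processed signals, and the cause was not tested. In FeD the processed signals called 137 higher and 143 lower (48.9% higher, against 32.1%). Single arrays gave 70 (array 1) to 107 (array 2) in FeD and 175 to 334 in FeO. At a log2 ratio of 0.5 there were 417 and 872, and at 2 there were 16 and 29. The methods' t-test, comparing RNA pools only, gave 1060 genes in FeD and 1401 in FeO unadjusted and 0 in each after Benjamini-Hochberg adjustment. limma's moderated test gave 1340 and 2069 unadjusted, and after adjustment it kept 74 probes in FeD, Alas2 among them, and 195 in FeO, with none of the 9 genes. The moderated test worked on the ratios within each array, whereas the t-test took the channel values of diet and FeA as separate groups. With 1 pool per diet, neither the spread between rats nor an effect of diet could be measured, and the ratios of the dim Slc4a1, Cpox and Ppox probes moved with the background treatment.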
